A study of Mus musculus with 3 samples.

Results

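B2m encodes beta-2-microglobulin, the light chain of major histocompatibility complex (MHC) class I. It was measured in cultured neurons of the mouse dorsal root ganglion, the sensory cells that relay touch and pain to the spinal cord. B2m is 1 of 15 genes that the array files name by a RefSeq accession, among 60846 probes, and it was chosen by its measured ratio to vehicle in these same data. Its levels and ratios are therefore a description, with no test. Its accession, NM_009735.3, is carried by a single probe that was printed as 20 spots on each array, of which the 19 with no outlier mark on any array were used.

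Primary neurons from C57BL/6 mice aged 5 to 9 days were cultured for 5 days and then exposed for 24 h. The groups were 1 mM melatonin, 100 µM 8-M-PDOT, which is an agonist of the melatonin receptor named MTR1B in the labels, and a vehicle of 1% ethanol in saline. Ethanol is named for the vehicle group only, with no solvent given for the treated cultures, and the labels do not say how many mice went into a culture. Each condition had 1 array, so no difference below has a replicate check, and the SD over spots is technical.

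MHC class I heavy chains generally need beta-2-microglobulin to fold and to reach the cell surface efficiently. There the complex shows peptides from inside the cell to CD8+ T cells. The same light chain pairs with class I-like molecules such as CD1d, the neonatal Fc receptor and HFE. Nearly all nucleated cells make it, so B2m often serves as a reference gene for expression measurements, while interferons and nuclear factor kappa B are known to raise its transcription. Neurons are known for low class I expression at rest. Ganglion cultures can also hold satellite glia, Schwann cells, fibroblasts and macrophages, all of which can express B2m. None of the 30 markers listed for neurons and for such other cells has a named probe here, so the labelled cell type was not checked. In bulk RNA, a different share of cells of one type and a different amount of RNA per cell cannot be told apart.

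The 250 bases just upstream of the B2m transcription start are shown because they hold sequences with a known role in this gene's regulation (RefSeq, GRCm38.p6, chr2:122147437-122147686, + strand, 5′ to 3′). Capitals mark matches to the interferon-stimulated response element and to the kappa B consensus, both searched on both strands, and the 2 matches do not overlap. Other regulatory elements were not searched for and are unmarked.

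B2m upstream: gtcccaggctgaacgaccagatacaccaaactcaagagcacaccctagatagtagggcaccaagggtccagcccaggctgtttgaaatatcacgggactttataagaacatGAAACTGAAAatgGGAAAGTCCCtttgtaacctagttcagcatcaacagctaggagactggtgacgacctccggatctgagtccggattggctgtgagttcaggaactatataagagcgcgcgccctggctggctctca

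The response element was searched as GAAANNGAAA, and its match begins 139 bases upstream of the start. This pattern occurs in 2.98% of the 32851 mouse upstream windows of the same length. The kappa B match begins 126 bases upstream, and that consensus occurs in 7.25% of windows. Of the 15 named genes, 13 have such a window, and B2m was the 1 gene among them with either match. Both motifs were chosen for their known role at B2m, so its matches follow from that choice and do not set it apart. A match is a description of the letters, since the arrays measured RNA and nothing at the promoter.

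The B2m probe gave a strong signal on all 3 arrays. The processed signal, which is the spot's brightness after background subtraction and correction for position, ran from 28063 to 32003 intensity units over the 19 spots of the melatonin array, with a median of 29768. On the 8-M-PDOT array it ran from 24259 to 28482 units, with a median of 26649. On the vehicle array it ran from 4977 to 5486 units, with a median of 5289. Every spot on both treated arrays was thus brighter than every spot on the vehicle array, while the melatonin and 8-M-PDOT ranges overlapped.

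The B2m signals lay far from both ends of the detector's range. All 20 spots were well above background on each array, and none was saturated. The brightest B2m spot reached 4.11% of the saturation value with melatonin, 3.66% with 8-M-PDOT and 0.705% with vehicle. The median local background at the B2m spots was 23, 21 and 21 units on the melatonin, 8-M-PDOT and vehicle arrays. The coefficient of variation over spots was 3.72%, 4.45% and 2.77% on the same arrays.

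The arrays themselves differed in overall brightness, which bears on how the treated arrays compare. The 75th percentile of the probes was 454 units with melatonin, 328 with 8-M-PDOT and 477 with vehicle. Dividing by it gave B2m a scaled signal of 65.6 ± 2.4 with melatonin, 80.5 ± 3.6 with 8-M-PDOT and 11.0 ± 0.31 with vehicle (mean ± SD, 19 spots each). On this scale the ranges were 61.8 to 70.5 with melatonin, 74.0 to 86.8 with 8-M-PDOT and 10.4 to 11.5 with vehicle, and no pair of arrays overlapped.

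**Figure D1:**
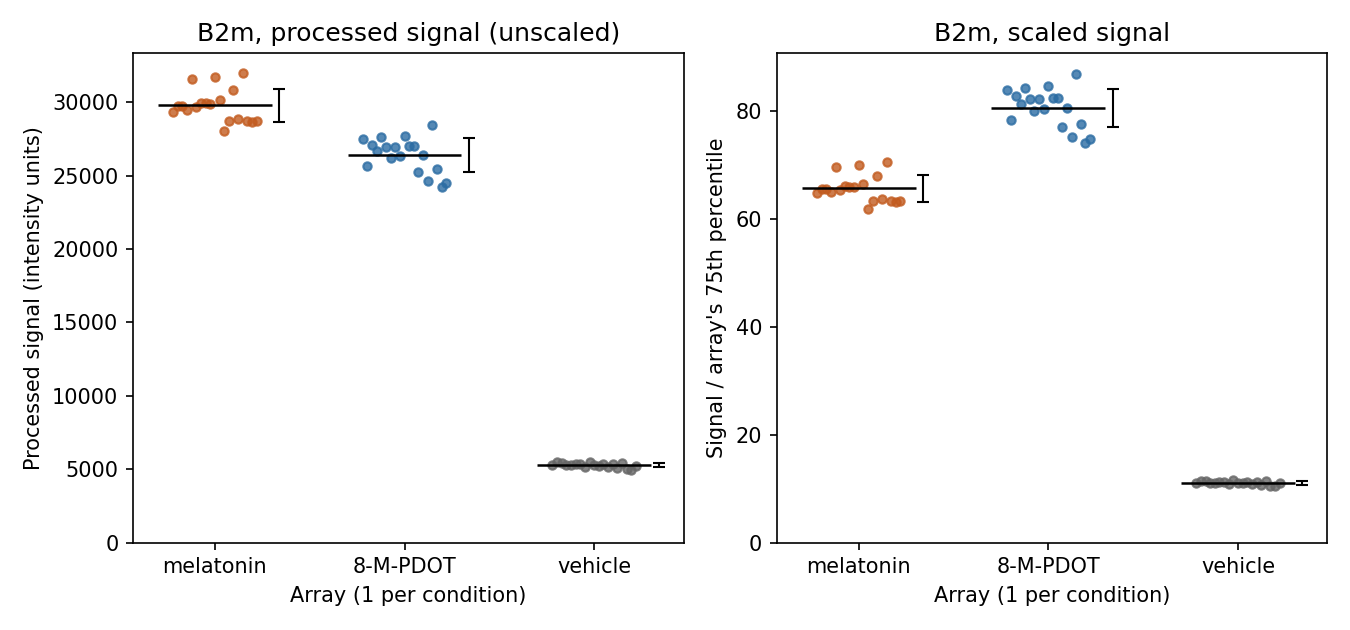
B2m signal of each of the 19 spots on the melatonin, 8-M-PDOT and vehicle arrays, as processed signal in intensity units (left) and divided by the array's 75th percentile (right). Points are spots in the order of their array row, horizontal lines are means and bars are the SD over spots. All treated spots lie above all vehicle spots in both panels, while the 8-M-PDOT array is dimmer than the melatonin array on the left (median 26649 against 29768 units) and brighter on the right.

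Set against vehicle, the melatonin array had 5.93-fold more B2m signal, a log2 ratio of 2.57 ± 0.05 (SD over 19 spots). Single spots ranged from 2.46 to 2.66 on the log2 scale, or from 5.49-fold to 6.33-fold, and all 19 passed 2-fold, the threshold that the series design names. At least 2-fold higher signals were found for 6.09% of the 46504 probes measured in this comparison. Measured here means well above background on 1 or both of the arrays compared. The log2 ratio of B2m was reached by 227 other probes, 0.488% of those measured, and the median over all of them was -0.06. With normexp, a model that separates signal from background, 83 probes reached the B2m ratio.

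The 8-M-PDOT array had 7.28-fold more B2m signal than the vehicle array, a log2 ratio of 2.86 ± 0.05 (SD over 19 spots). The spots ranged from 2.77 to 2.94, and again all 19 passed 2-fold. More of the array was at least 2-fold higher in this comparison, 17.1% of 47822 measured probes. A ratio as high as that of B2m was reached by 1712 other probes, or 3.58%, and by 930 with normexp. On this scale both the B2m ratio and the share of probes that reached it were larger with 8-M-PDOT, while without scaling the B2m ratio was the smaller of the 2 (2.32 with 8-M-PDOT and 2.50 with melatonin). Both comparisons use the same vehicle array, so its B2m value of 5270 units (geometric mean) enters both ratios.

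**Figure D2:**
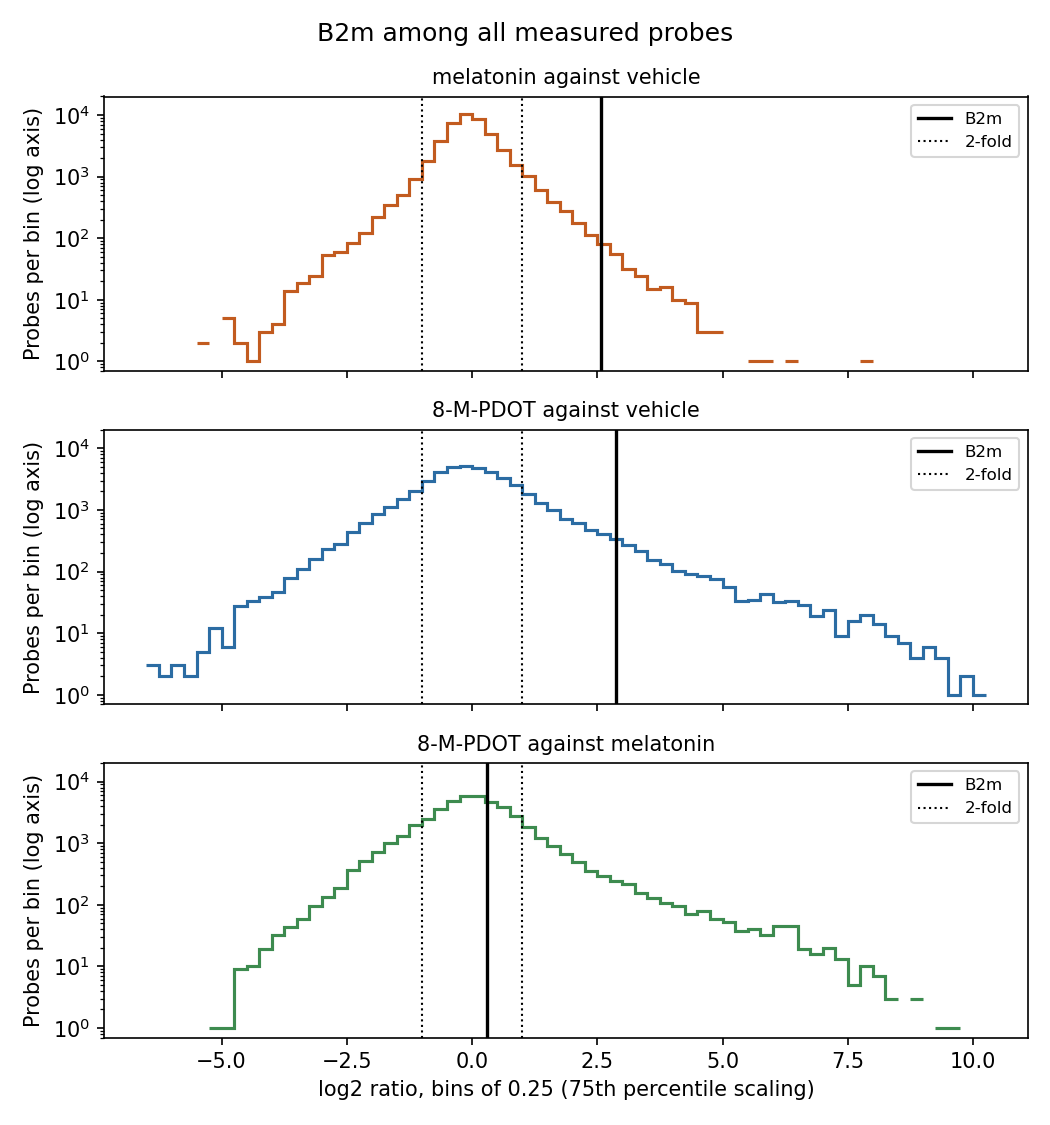
Number of measured probes (log axis) in bins of 0.25 of the log2 ratio, for melatonin against vehicle, 8-M-PDOT against vehicle and 8-M-PDOT against melatonin. Solid lines mark B2m at 2.57, 2.86 and 0.29, and dotted lines mark 2-fold. B2m lies in the upper tail against vehicle and near the centre between the treated arrays.

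Between the treated arrays, which were exposed to different concentrations (100 µM 8-M-PDOT and 1 mM melatonin), B2m differed little. The log2 ratio of 8-M-PDOT to melatonin was 0.29 ± 0.05 (1.23-fold, SD over 19 spots), with spots from 0.23 to 0.41. All 19 spots were higher with 8-M-PDOT on the scaled values, and 0 of the 19 were higher on the unscaled ones, where the log2 ratio was -0.17. The direction therefore rests on the scaling, which moves every ratio of this comparison by 0.47. In this comparison the 2-fold threshold was passed upwards by 15.3% of the 47798 measured probes, and B2m was not among them. A ratio at least as high as that of B2m was found for 37.1% of the probes, and the quartiles over all probes were -0.54 and 0.62.

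The 13 other ways of processing the arrays left the ratios to vehicle past 2-fold. The log2 ratio of melatonin to vehicle lay between 2.50, with no scaling, and 2.91, in the authors' deposited table. That of 8-M-PDOT to vehicle lay between 2.32, with no scaling, and 3.00, when the other 14 named genes set the scale. The ratio between the treated arrays lay between -0.17 and 0.40, and it was 0.012 in the authors' deposited table, where B2m stood at 14.90 for melatonin, 14.91 for 8-M-PDOT and 11.98 for vehicle in log2 units. Many of these settings shift all ratios by a constant or reuse the same spots, so they are not independent checks.

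**Figure D3:**
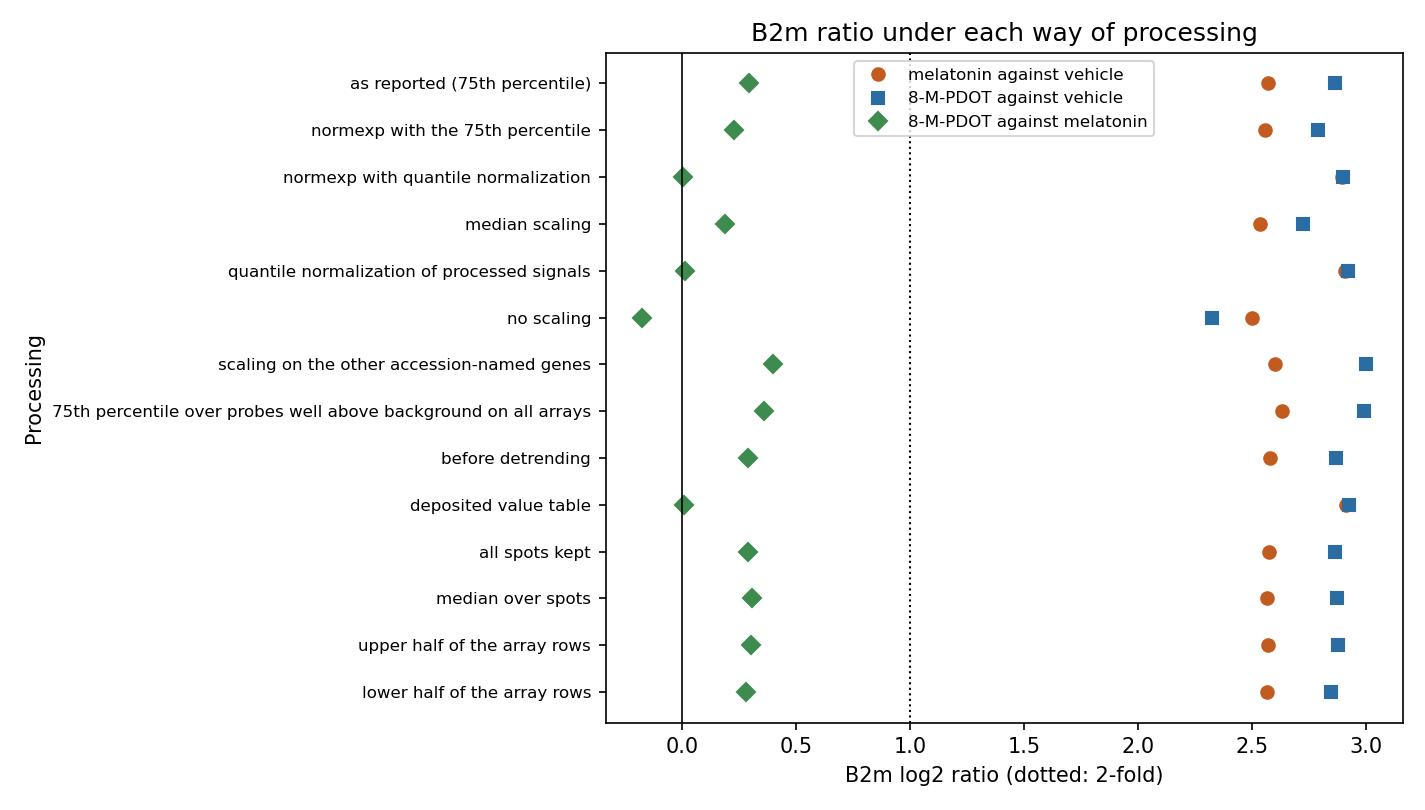
B2m log2 ratio in 3 comparisons (circles, melatonin against vehicle; squares, 8-M-PDOT against vehicle; diamonds, 8-M-PDOT against melatonin) as reported and under 13 other ways of processing. Ratios to vehicle stay between 2.32 and 3.00, past the dotted line at 2-fold, and the ratio between the treated arrays lies between -0.17 and 0.40, on both sides of 0.

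The spots of the B2m probe are scattered over the array, which shows how the ratio varied with array row. Variation across the array's columns was not summarized, so the values below do not show that the ratio was even over the array. In rows 1 to 192 of the array's 384, 11 spots gave log2 ratios of 2.57 ± 0.05 for melatonin and 2.88 ± 0.05 for 8-M-PDOT against vehicle. In the rows below, 8 spots gave 2.57 ± 0.05 and 2.85 ± 0.05. The processed signals of the treated arrays had been corrected by the scanner software with a multiplicative surface (root mean square 0.046 for melatonin and 0.044 for 8-M-PDOT), while the header of the vehicle array shows none (0). Before that correction, the unscaled ratios in the upper rows exceeded those in the lower rows by 0.08 for both treatments, and after it the scaled ones did so by 0.0034 and 0.028. These differences between rows are small beside the B2m ratios themselves.

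**Figure D4:**
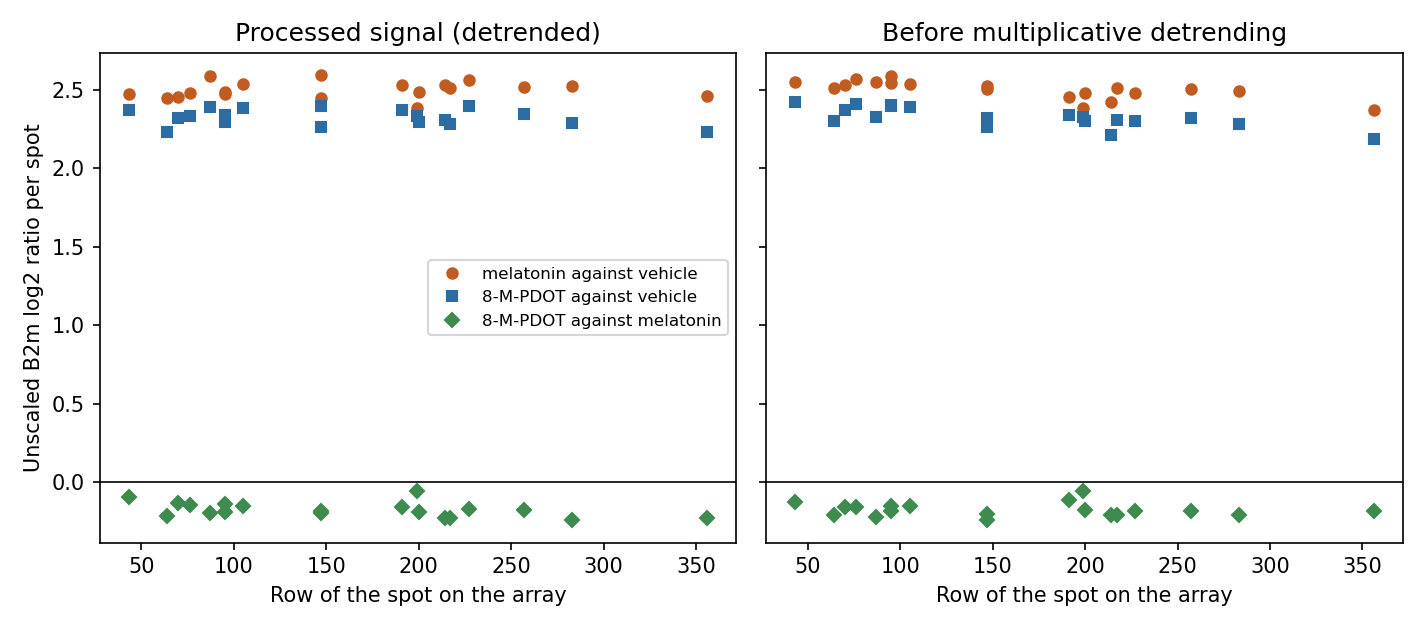
Unscaled B2m log2 ratio of each of the 19 spots against the row of the spot on the array, from processed signals (left) and from background-subtracted signals before multiplicative detrending (right). Ratios to vehicle fall slightly down the array before detrending (upper minus lower rows 0.08 for each treatment) and little after it, and the 8-M-PDOT to melatonin ratio is below 0 at every spot in both panels.

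The spot that was left out lay in row 327 and carried an outlier mark on the vehicle array, where it was the dimmest of the 20. It read 29818 units with melatonin, 25045 with 8-M-PDOT and 4900 with vehicle. Its log2 ratios were 2.68 for melatonin and 2.89 for 8-M-PDOT against vehicle. With all 20 spots the means were 2.57 and 2.87.

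A comparison with the other 14 named genes on the same arrays does not depend on scaling each array by a constant. Such a shift cancels in the difference of log2 ratios. Quantile normalization shifts probes by unlike amounts, and the differences were not recomputed under it. With melatonin against vehicle, B2m exceeded all 14, by 1.23 over Gusb, the lysosomal enzyme beta-glucuronidase, up to 3.75 over Tfrc, the transferrin receptor. With 8-M-PDOT against vehicle it exceeded all 14 too, by 0.87 over cytoskeletal Actb up to 5.07 over the purine salvage gene Hprt. The median excess was 2.74 with melatonin and 2.87 with 8-M-PDOT. Because B2m was chosen by its ratio to vehicle, its place above the other genes against vehicle is no separate result. In 8-M-PDOT against melatonin B2m was above 9 of the 14 and below 5, with a median difference of 0.15.

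No named gene followed the B2m pattern closely. Likeness was taken as the Euclidean distance between the pairs of log2 ratios to vehicle, over the 3 arrays. B2m was chosen by these same ratios, so its distance from the other named genes is no separate result. The nearest were Actb at 2.17, Gusb at 2.52 and Rpl13a, a ribosomal protein gene, at 3.00, and the most distant was Hprt at 6.02. Actb had log2 ratios of 0.58 with melatonin and 2.00 with 8-M-PDOT, and Gusb 1.34 and 0.66. Actb with 8-M-PDOT was the 1 case within 2-fold of the B2m ratio to vehicle. Actb read 13391 units with melatonin, 25904 with 8-M-PDOT and 9439 with vehicle, and its treated arrays therefore differed more than those of B2m.

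Closer patterns were found among probes that the files do not pair with a gene. Of 41238 probes well above background on all arrays, 15 lay within a distance of 0.25 of B2m and 59 within 0.5, or 0.143%. The nearest was ASMM10P032875 at 0.015, with log2 ratios of 2.58 for melatonin and 2.86 for 8-M-PDOT against vehicle. Next was ASMM10P025165 at 0.094, with 2.51 and 2.79. On the melatonin, 8-M-PDOT and vehicle arrays ASMM10P032875 read 704, 615 and 124 units. ASMM10P025165 read 1121, 988 and 207 units, and both probes were far dimmer than B2m on each array. Their likeness to B2m was found by searching all probes, and their genes are not named here.

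**Figure D5:**
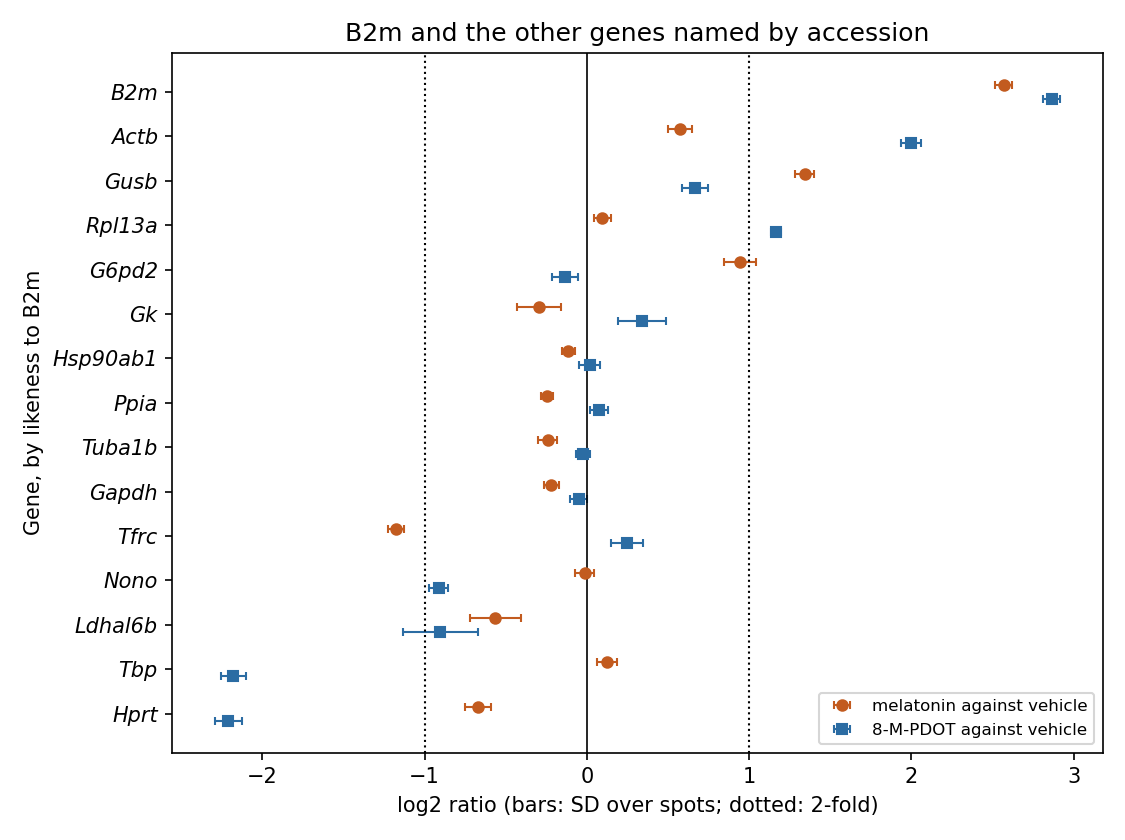
Log2 ratios of the 15 genes named by accession for melatonin against vehicle (circles) and 8-M-PDOT against vehicle (squares), ordered from top to bottom by likeness to B2m. Bars are the SD over a gene's spots and dotted lines mark 2-fold. B2m, which was chosen by its ratio to vehicle, lies at 2.57 and 2.86, to the right of each other gene in both comparisons.

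The rest of the class I pathway could not be followed. Of 27 listed genes of antigen presentation, which include the heavy chains, the peptide transporter subunits Tap1 and Tap2 and the class I transactivator Nlrc5, B2m was the 1 member with a named probe. Of 15 listed reference genes, 12 had a named probe, B2m included. Because B2m was chosen by its ratio to vehicle, its own place among the higher genes was set by that choice. The counts and medians over the 12 include it, so they are a description and no separate result. With melatonin against vehicle 2 of the 12 were at least 2-fold higher (B2m and Gusb) and 1 lower (Tfrc), with a median log2 ratio of -0.06 beside -0.06 over all measured probes, of which 6.09% were higher and 5.14% lower by that threshold. With 8-M-PDOT against vehicle 3 were higher (B2m, Actb and Rpl13a) and 2 lower (Hprt and Tbp, the TATA-binding protein of transcription initiation), with a median of 0.04 beside -0.04 over all measured probes, of which 17.1% were higher and 15.8% lower. Which direction held more probes depended on the processing, since median scaling gave 7027 higher and 9118 lower.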

How the data were processed

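Per the labels, Cy3-labelled total RNA of 3 samples, 1 per condition, was read on single-colour Arraystar mouse arrays. Per the submitters' processing notes, the deposited scanner files come from Agilent Feature Extraction 11.0.1.1, and they give an intensity per spot after that software's background subtraction and detrending. Other columns that the authors deposited hold flags and spot positions. The authors also deposited a table of log2 values with no statement, in the sources used here, of its normalization. Over bright probes it differed from quantile-normalized processed signals by a median of at most 0.00065 per array. The 3 arrays were at slide positions 2, 3 and 1 (melatonin, 8-M-PDOT, vehicle) of 1 slide per the file headers, so position and condition cannot be told apart.

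Log2 processed signals were averaged over the spots of a probe, leaving out control spots, the 15 probes named as negative, and any spot flagged as an outlier on 1 or more arrays (69 further probes lost), and the 75th percentile of each array was subtracted. In counts over all probes, dim values were set no lower than the dimmest probe that was well above background on that array. Of the probes, 45094, 45007 and 44580 were well above background on the melatonin, 8-M-PDOT and vehicle arrays. No p-value was computed, and precision is limited by the number of arrays. The files hold no mean spot signal, so normexp (limma 3.58.1, R 4.3.3, offset 50) used the median signal in place of the one planned.

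The 15 accessions all matched a gene in the RefSeq table (GRCm38.p6). The array grid names mm9, so no array coordinates are given. Named genes were B2m, the 3 nearest and the most distant accession-named gene, list members past 2-fold, and the 2 nearest probes. B2m, the lists and the analyses were chosen with earlier results of these data known.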

Additional observations from a re-analysis of the deposited data

How the results depend on the processing

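No paired analysis was possible because there was a single array in each group, and for that reason no array could be left out. Each B2m log2 ratio was recomputed in 13 other ways. The ratio moved by less than 1 SD over spots in 8 of them for melatonin against vehicle (2.57), 6 for 8-M-PDOT against vehicle (2.86) and 5 for 8-M-PDOT against melatonin (0.29). In that order of comparisons, no scaling gave 2.50, 2.32 and -0.17, the last with its sign turned. The deposited table gave 2.91, 2.92 and 0.012, quantile normalization 2.91, 2.92 and 0.013, and the 75th percentile over probes that were well above background on every array 2.63, 2.99 and 0.36. Normexp with quantile normalization gave 2.89 for melatonin against vehicle and 0.0075 for 8-M-PDOT against melatonin. For 8-M-PDOT against vehicle and against melatonin, normexp with the 75th percentile gave 2.79 and 0.23, median scaling 2.72 and 0.19, and the other named genes as scale 3.00 and 0.40. The cause of the shifts beyond the change of scale was not tested.

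Counts of probes at least 2-fold higher moved more. For melatonin against vehicle (2833) they were 1371 after normexp with the 75th percentile, 1361 with quantile normalization after it, 4380 without a filter and 541 at 4-fold. For 8-M-PDOT against vehicle (8171), normexp with quantile normalization gave 5109 and the 4-fold threshold 3345. For 8-M-PDOT against melatonin (7327), normexp gave 4576 with the 75th percentile and 4123 with quantile normalization, and the 4-fold threshold 2665. In 8-M-PDOT against vehicle the larger group turned from higher (8171 against 7545 lower) to lower with median scaling (7027 higher and 9118 lower), with quantile normalization (7529 and 8359) and over probes well above background on both arrays (6318 and 6927). In 8-M-PDOT against melatonin (7327 higher, 6498 lower) it turned under the same settings (6431 and 7490, 6542 and 7409, 5574 and 5964) and after normexp with quantile normalization (4123 and 4348). The B2m signal was at least 273 times the lowest signal well above background on its array.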
